A study of Mus musculus with 6 samples.

Results

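MYC and MAX are basic helix-loop-helix leucine zipper transcription factors. MYC binds DNA only as a dimer with MAX and activates genes of growth, metabolism and ribosome production at E-box sequences, while the MXD proteins (MXD1, MXI1, MXD3 and MXD4) and MNT compete for MAX and for the same sites and repress them through the SIN3 corepressor. MGA pairs with MAX in a polycomb complex, and MLX is a MAX-like factor that pairs with MondoA, encoded by Mlxip, and with some MXD proteins. In T cells MYC is low at rest, is induced by the T cell receptor and drives growth and division of the activated cell.

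The 9 genes of this network, Myc, Max, Mlx, Mxd1, Mxi1, Mxd3, Mxd4, Mnt and Mga, were taken by gene symbol from 46983 genes counted by RNA sequencing of rRNA-depleted total RNA. Of the 9, 8 had a row in the table that the authors deposited, and Mxd3 was found in the count tables by its Ensembl identifier. The libraries came from naïve CD4 T cells of lymph nodes, sorted by FACS as live TCRb+ CD4+ cells of the naïve surface phenotype, with CD44- among its criteria, with 3 libraries from control mice (Rnmt fl/fl CD4cre -) and 3 from Rnmt cKO mice (Rnmt fl/fl CD4cre +). All 6 libraries are labelled as male, the labels give no age, and both groups carry the floxed alleles of Rnmt, the enzyme that methylates the RNA cap. Cre is driven by Cd4 regulatory sequence and acts from the double positive stage of the thymus, and since no control carries it, Cre and the loss of Rnmt cannot be told apart. The comparison asks how the network's transcripts respond to deletion of Rnmt before activation.

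Sense counts in genes ran from 8873413 to 11277764 per library, and the share of uniquely mapped reads that lay in no gene ran from 31.8% to 47.9%. Rnmt itself was at 51.5, 58.7 and 57.9 CPM (counts relative to the TMM-scaled library total) in the controls and at 42.0, 37.5 and 26.6 CPM in the Rnmt cKO libraries. The groups did not overlap, the log2 fold change was -0.67 ± 0.20 (SE) and the adjusted p was 0.00035 in the edgeR exact test. These counts take in the whole gene, whereas the authors describe a floxed allele that loses a single exon. They therefore do not measure how complete the deletion was. Cd3e, Cd3d, Cd4, Ccr7, Lef1, Tcf7 and Il7r, markers of naïve CD4 T cells, summed to 3470 to 3629 CPM in controls and to 3541 to 3972 CPM in Rnmt cKO cells, which overlapped. Of these 7 genes Cd4 was higher and Il7r was lower past the threshold. In such bulk samples fewer cells of a type and less RNA per cell cannot be told apart.

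Within the network, MXD repressor genes changed in opposite directions. Mxd3 and Mxd1 rose and Mxd4 fell in Rnmt cKO cells, and Myc, Max, Mlx, Mxi1, Mnt and Mga were not past the threshold, an adjusted p of 0.05 in the edgeR exact test over 12336 genes. Mxd3 passed the filter on low counts only through the Rnmt cKO libraries, where it is high, so that its call is left out of the following counts. Of the other 8 members 2 were called, where 14.8% of all genes tested were called, 8.0% higher and 6.84% lower. Groups did not overlap for 3 of these 8, Mxd1, Mxd4 and Mnt, where this holds for 31.4% of all genes. The median absolute log2 fold change was 0.23 over the 8 members and 0.17 over all genes. Scaling by library size alone moved the median of all genes by 0.12 on the log2 scale. Of these 8 members, Mxd1, Mxi1 and Mnt were then higher and 0 were lower in the edgeR exact test.

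**Figure D1:**
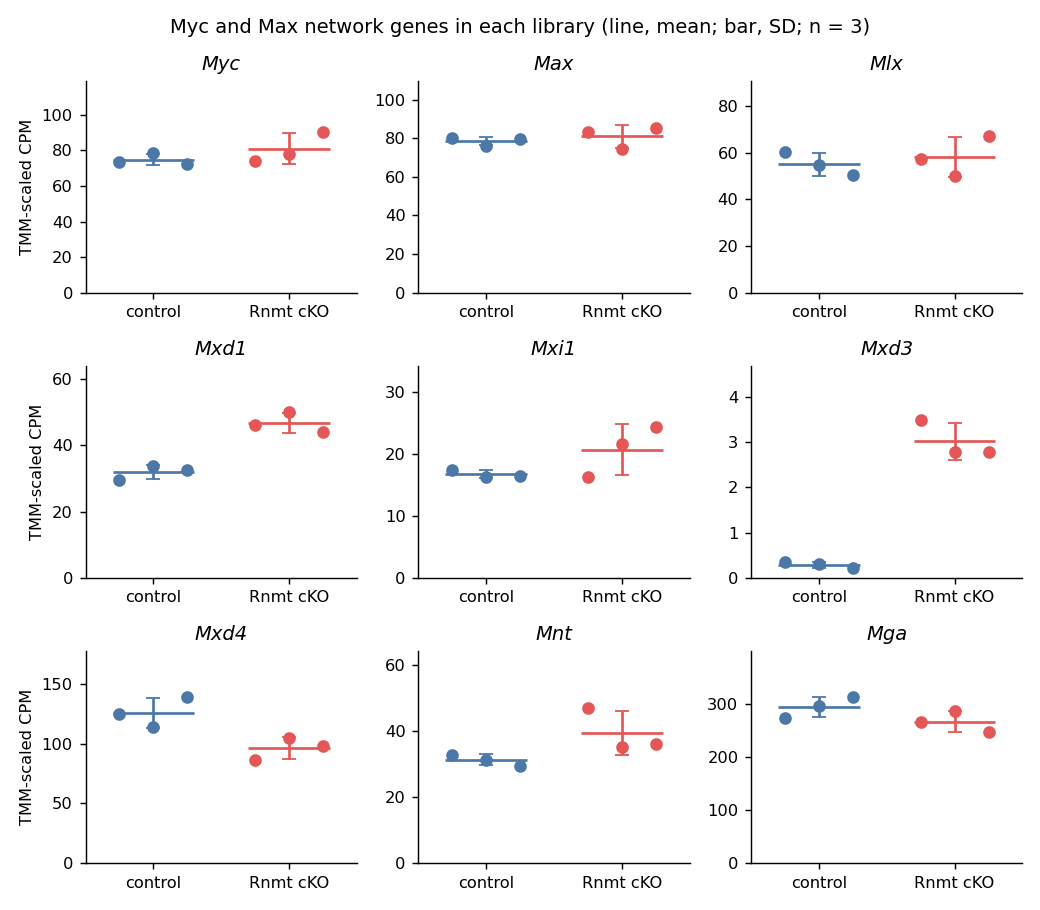
TMM-scaled CPM of each member (y axis, from 0) in the 3 control and 3 Rnmt cKO libraries. Points are libraries, lines are means and bars are SD. Mxd1, Mxd3 and Mnt lie higher and Mxd4 lower in every Rnmt cKO library than in any control, though Mnt did not pass the threshold. Groups do not overlap for 31.4% of all genes tested. The points of Myc, Max, Mlx, Mxi1 and Mga overlap.

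MYC, the activator at the centre of the network, was measured at 73.7, 78.3 and 72.1 CPM of Myc RNA in controls 1, 2 and 3 (ENSMUSG00000022346, chromosome 15, 61985391 to 61990374, mm10). In Rnmt cKO libraries 1, 2 and 3 it was at 74.3, 78.04 and 90.6 CPM. The groups overlapped, and the highest value was that of Rnmt cKO 3. The means were 74.7 ± 3.18 CPM (SD, n = 3) and 81.0 ± 8.55 CPM (SD, n = 3), the log2 fold change was 0.12 ± 0.09 (SE) and the exact test adjusted p was 0.555. The 95% interval of the difference from limma ran from -0.09 to 0.31 on the log2 scale, that is from -5.97% to 24.2%. Without Rnmt cKO 3 the log2 fold change of Myc was 0.01.

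MAX, the partner that MYC, MXD proteins, MNT and MGA share, overlapped between the groups too. Max (ENSMUSG00000059436, chromosome 12, 76937269 to 76962201) was at 80.1, 76.0 and 79.6 CPM in controls and at 83.1, 74.5 and 85.6 CPM in Rnmt cKO libraries. The groups overlapped, with a log2 fold change of 0.04 ± 0.07 (SE), an interval from -0.14 to 0.22 and an exact test adjusted p of 0.851. The sign was negative without Rnmt cKO 3, at -0.02.

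MLX, which takes the place of MAX in a parallel branch that senses glucose, also overlapped between groups. Mlx (ENSMUSG00000017801, chromosome 11, 101087277 to 101092207) was at 60.3, 54.6 and 50.5 CPM in controls and at 57.5, 49.9 and 67.0 CPM in Rnmt cKO libraries. Its log2 fold change was 0.08 ± 0.14 (SE), with an interval from -0.19 to 0.32 and an adjusted p of 0.796 in the exact test, and without Rnmt cKO 3 it was -0.06. Mlxip, the MLX partner that was not a listed member, was at 77.9 ± 3.06 CPM and 74.1 ± 8.10 CPM (SD, n = 3 in each group), with a log2 fold change of -0.07 that was 0.05 without scaling beyond library size.

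Of the repressors, Mxd1 (ENSMUSG00000001156, chromosome 6, 86647042 to 86669161) encodes the MXD protein known for its rise as cells differentiate. It was at 29.5, 33.7 and 32.5 CPM in controls 1, 2 and 3. In Rnmt cKO libraries 1, 2 and 3 it was at 46.2, 50.1 and 43.9 CPM. All 3 Rnmt cKO libraries lay above all controls, with means of 31.9 ± 2.17 CPM and 46.7 ± 3.14 CPM (SD, n = 3 in each group). The log2 fold change was 0.55 ± 0.08 (SE) with an adjusted p of 3.27e-05 in the edgeR exact test, and the limma interval ran from 0.33 to 0.76. Mxd1 was past the threshold in all 18 alternatives, with log2 fold changes from 0.49 to 0.67.

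Mxd3 (ENSMUSG00000021485, chromosome 13, 55325168 to 55329823) encodes the MXD protein known from dividing cells, where the others mark arrest. Controls 1, 2 and 3 held 3, 3 and 2 sense counts of Mxd3, while Rnmt cKO libraries 1, 2 and 3 held 33, 33 and 31. These are 0.353, 0.299 and 0.221 CPM and 3.49, 2.78 and 2.78 CPM. The groups were far apart, although the level in Rnmt cKO cells stayed low. Summed over the libraries, 97 counts stood against 8, a ratio of 10.3 after scaling with an exact 95% interval from 5.02 to 24.5 that covers counting error only, as PCR copies of a molecule cannot be told from further molecules. The log2 fold change in the edgeR exact test was 3.32 with an adjusted p of 1.82e-11. Mxd3 was tested only because the Rnmt cKO libraries, where it is high, passed the filter on low counts. Its p therefore adds no support beyond the counts themselves. On log2 CPM with a prior count of 2 the limma estimate was 2.71, with a 95% interval from 2.01 to 3.42. Without any 1 of the Rnmt cKO libraries Mxd3 missed the filter of 3 samples, and with the filter set at 2 samples, an alternative chosen after seeing the data, it was called at 3.20 to 3.36. The last 105 bases of Mxd3 overlap the end of Prelid1 on the opposite strand. Opposite-strand counts over Mxd3 were 210, 268 and 222 in controls and 226, 262 and 287 in Rnmt cKO libraries, so that the separation of the groups lay in the sense counts. When reads of either strand were counted, where reads that overlap both genes are left uncounted, Mxd3 held 7, 11 and 6 counts in controls and 33, 45 and 41 in Rnmt cKO libraries, and its log2 fold change was 2.06.

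Markers of other states moved in the same libraries as Mxd3 and Mxd1. The 12 proliferation genes summed to 209.0 to 234.5 CPM in controls and to 492.6 to 543.4 CPM in Rnmt cKO cells. Of them 11 were higher past the threshold, where 8.0% of all genes tested were higher and 6.84% lower. The median log2 fold change of this list was 2.36. This count and median take in Cdk1, Birc5 and Aurkb, which passed the filter on low counts only through the Rnmt cKO libraries. Mki67, a marker of cycling cells, was at 15.2 ± 2.45 and 117.1 ± 10.3 CPM, and Top2a, the topoisomerase of replicating and condensing chromosomes, at 19.0 ± 1.64 and 112.1 ± 7.75 CPM (SD, n = 3 in each group). Ccna2, which encodes cyclin A2, and Rrm2, a ribonucleotide reductase subunit, had log2 fold changes of 3.67 and 2.35 (edgeR exact test adjusted p of 8.44e-49 and 9.35e-29). The 5 B cell markers summed to 34.7 to 40.1 CPM in controls and to 42.5, 74.2 and 57.3 CPM in Rnmt cKO 1, 2 and 3, with Cd79b, Ms4a1 and Cd22 higher and 0 of the 5 at 0 in all libraries. The 6 myeloid markers summed to 4.39 to 6.07 CPM and to 9.72 to 25.6 CPM, with Lyz2 and S100a8 higher among the 3 tested. Of these 3, S100a8 and Itgam passed the filter on low counts only through the Rnmt cKO libraries, where they are high. The CD8 T cell markers, Cd8a and Cd8b1, summed to 21.7 to 23.3 CPM in controls and to 13.5 to 17.3 CPM in Rnmt cKO cells, and both were lower. The part of cycling, B or myeloid cells in the rise of Mxd1 and Mxd3 was not tested.

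Mxd4 (ENSMUSG00000037235, chromosome 5, 34173883 to 34187720) was the MXD gene with the highest level in resting cells. It was at 124.4, 113.5 and 138.7 CPM in controls 1, 2 and 3 and at 86.7, 104.5 and 98.1 CPM in Rnmt cKO libraries 1, 2 and 3. The groups did not overlap, but the gap between control 2 and Rnmt cKO 2 was narrow. The means were 125.5 ± 12.7 CPM and 96.4 ± 9.05 CPM (SD, n = 3 in each group), and Mxd4 fell by 0.38 on the log2 scale with an SE of 0.12 and an adjusted p of 0.00712 in the exact test. The limma interval ran from -0.60 to -0.16. The call was lost in 5 of 18 alternatives. Among these were the exact tests without control 3 and without Rnmt cKO 1, with adjusted p-values of 0.0918 and 0.0838. Another was the exact test without scaling beyond library size, with a log2 fold change of -0.26 and an adjusted p of 0.118.

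Mnt and Mxi1, the other repressor genes, did not pass the threshold. Mnt (ENSMUSG00000000282, chromosome 11, 74830920 to 74845725), the broadly expressed MAX partner that opposes MYC, was at 32.8, 31.3 and 29.5 CPM in controls and at 46.9, 35.2 and 36.0 CPM in Rnmt cKO libraries. Its groups did not overlap, with Rnmt cKO 1 well above the other libraries, and the log2 fold change was 0.33 ± 0.14 (SE) with an exact test adjusted p of 0.0870. Leaving out Rnmt cKO 3 brought Mnt past the threshold (exact test adjusted p of 0.0270), and leaving out Rnmt cKO 1 brought its log2 fold change to 0.19. Mxi1 (ENSMUSG00000025025, chromosome 19, 53310518 to 53375810), also known as MXD2, was at 17.4, 16.2 and 16.5 CPM in controls and at 16.2, 21.5 and 24.3 CPM in Rnmt cKO libraries. Its groups overlapped through Rnmt cKO 1, and the log2 fold change was 0.31 ± 0.18 (SE) with an adjusted p of 0.238 in the exact test. Leaving out Rnmt cKO 1 gave 0.46, past the threshold with p = 0.0402 (exact test, adjusted), and leaving out Rnmt cKO 3 gave 0.17 with p = 0.533.

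Mga (ENSMUSG00000033943, chromosome 2, 119897228 to 119969581) encodes a MAX partner that also carries a T-box domain. It was at 273.9, 295.2 and 312.7 CPM in controls and at 265.2, 286.1 and 247.1 CPM in Rnmt cKO libraries, so that the groups overlapped. The log2 fold change was -0.14 ± 0.08 (SE) with an interval from -0.33 to 0.04 and an exact test adjusted p of 0.411.

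**Figure D2:**
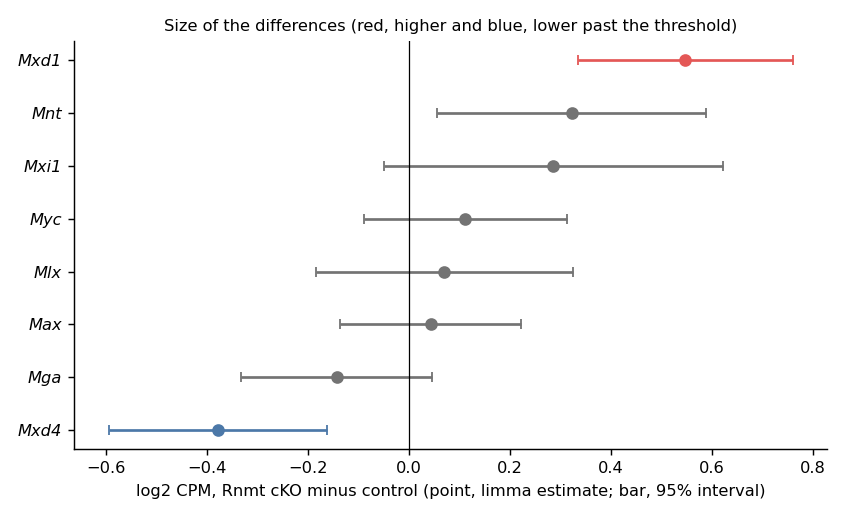
Difference in log2 CPM between Rnmt cKO and control (x axis) for 8 members. Points are limma estimates and bars are 95% intervals. The bars of Mxd1, from 0.33 to 0.76, and Mxd4, from -0.60 to -0.16, lie on opposite sides of 0, and those of Myc, Max, Mlx, Mxi1 and Mga cross it. The bar of Mnt lies above 0 while its adjusted p did not pass. Mxd3 is left out because its control libraries held 3 counts or fewer.

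The share of reads in no gene divided the libraries into 3 with 31.8% to 39.7% (2 controls and 1 Rnmt cKO) and 3 with 46.1% to 47.9% (1 control and 2 Rnmt cKO). Within these sets the differences in log2 CPM of Mxd1 were 0.47 and 0.56, those of Mxd3 were 2.504 and 2.98 and those of Mxd4 were -0.28 and -0.54. Those of Myc were 0.25 and 0.08, and those of Max were 0.13 and -0.02. The sets are too small for a test.

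Levels of different genes were compared as CPM per kilobase of exon. In controls the order ran from Max at 40.1 ± 1.15 over Mxd4 at 32.3 ± 3.26, Myc at 30.5 ± 1.30, Mlx at 27.7 ± 2.48 and Mga at 21.1 ± 1.39 to Mxd1 at 6.84 ± 0.465, Mnt at 6.80 ± 0.361, Mxi1 at 2.51 ± 0.0966 and Mxd3 at 0.219 ± 0.04996 CPM per kilobase (SD, n = 3 each). Mxd4 and Myc, Myc and Mlx, and Mxd1 and Mnt overlapped as neighbours in that order. Max was first in both groups, with 41.4 ± 2.97 CPM per kilobase (SD, n = 3) in Rnmt cKO cells. In Rnmt cKO cells Mxd4, at 24.8 ± 2.33 CPM per kilobase, came after Myc and Mlx, with values that overlapped those of Mlx. Mxd3 reached 2.27 ± 0.307 CPM per kilobase (SD, n = 3) there and overlapped with Mxi1 at 3.10 ± 0.620 (SD, n = 3). The levels of Mycn and Mycl, the paralogues of Myc, were at or under 3 counts in every library, as were those of Mlxipl, a paralogue of Mlxip.

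**Figure D3:**
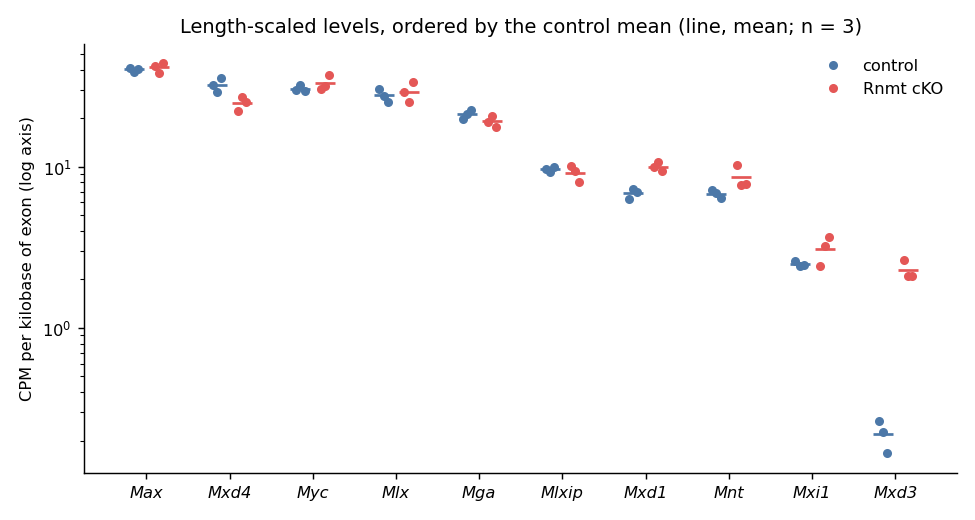
CPM per kilobase of exon (y axis, log axis) of the 9 members and Mlxip in control (blue) and Rnmt cKO (red) libraries, ordered by the control mean. Points are libraries and lines are means. Max lies at the top in both groups, and Mxd3 moves from 0.219 to 2.27 CPM per kilobase.

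The repressor transcripts shifted in make-up while their sum overlapped between groups. Summed over Mxd1, Mxd3, Mxd4, Mxi1 and Mnt, the level was 48.4, 45.9 and 51.8 CPM per kilobase in controls and 47.5, 50.7 and 48.3 in Rnmt cKO libraries, with means of 48.7 ± 2.92 and 48.8 ± 1.65 (SD, n = 3 in each group). Myc relative to that sum was 0.623, 0.696 and 0.569 in controls and 0.639, 0.630 and 0.767 in Rnmt cKO libraries, which overlapped. Max relative to the sum of its partners Myc, Mxd1, Mxd3, Mxd4, Mxi1, Mnt and Mga was 0.400 ± 0.0142 and 0.410 ± 0.0364 (SD, n = 3 in each group) and overlapped as well. Within the MXD family, however, Mxd4 took 77.1 ± 2.11% of the length-scaled level in controls and 61.7 ± 1.55% in Rnmt cKO cells, Mxd1 took 16.4 ± 1.81% and 24.9 ± 1.63%, and Mxd3 took 0.529 ± 0.145% and 5.70 ± 1.18% (SD, n = 3 in each group). The ratio of Mxd1 to Mxd4 per kilobase was 0.197, 0.247 and 0.195 in controls and 0.443, 0.399 and 0.373 in Rnmt cKO libraries, with no overlap. As a ratio within a library it does not depend on the scaling between libraries. The family shares and this ratio were chosen after the values had been seen and describe the same difference as the tests of Mxd1 and Mxd4.

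**Figure D4:**
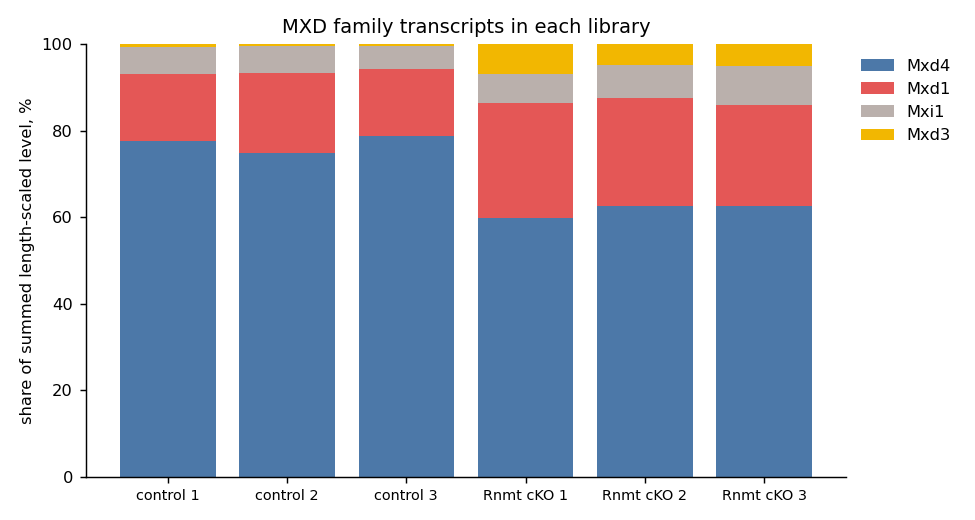
Share of the summed length-scaled level of Mxd1, Mxd3, Mxd4 and Mxi1 (y axis, percent) that each gene took in each library (x axis). Mxd4 (blue) takes 74.7% to 78.8% in the controls and 59.9% to 62.6% in the Rnmt cKO libraries, and Mxd1 (red) and Mxd3 (yellow) take more in the Rnmt cKO libraries.

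The 250 bases before the annotated start (RefSeq, GRCm38.p6) are shown for the 3 members that changed, to set the promoters of the genes that rose beside that of the gene that fell. Capitals mark the E-box CACGTG, which MYC-MAX and MXD-MAX dimers bind, and the CCAAT box, on either strand. The windows lie on the minus strand at chr6:86669160-86669409 for Mxd1, chr13:55329732-55329981 for Mxd3 and chr5:34187711-34187960 for Mxd4.
Mxd1: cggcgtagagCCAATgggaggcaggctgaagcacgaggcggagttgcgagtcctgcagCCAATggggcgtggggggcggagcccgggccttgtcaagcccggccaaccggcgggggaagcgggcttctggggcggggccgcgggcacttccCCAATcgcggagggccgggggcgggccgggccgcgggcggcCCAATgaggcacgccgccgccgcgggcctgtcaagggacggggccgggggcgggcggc
Mxd3: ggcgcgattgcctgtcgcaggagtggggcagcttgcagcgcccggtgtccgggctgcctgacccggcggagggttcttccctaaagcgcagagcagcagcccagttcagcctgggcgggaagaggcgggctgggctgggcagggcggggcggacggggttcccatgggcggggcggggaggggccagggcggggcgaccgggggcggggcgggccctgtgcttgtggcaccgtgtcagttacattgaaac
Mxd4: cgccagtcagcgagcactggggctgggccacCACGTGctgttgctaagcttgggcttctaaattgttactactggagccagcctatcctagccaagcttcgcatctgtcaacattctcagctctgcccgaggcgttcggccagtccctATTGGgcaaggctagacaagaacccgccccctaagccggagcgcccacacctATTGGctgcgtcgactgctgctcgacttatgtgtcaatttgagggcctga
Both strands were searched. The window of Mxd1 held 4 CCAAT boxes and 0 E-boxes, that of Mxd3 held 0 of either, and that of Mxd4 held 1 E-box and 2 CCAAT boxes. Of all 32851 promoters of this length, 6.02% held the E-box and 33.8% the CCAAT box. Windows were found for 8 members, all but Myc, with 10 windows in all, and 3 of these, those of Mxd4, Mnt and Mlx, held the E-box. The CCAAT box was likewise in 3 of the 10 windows, those of Mxd1, Mxd4 and Mlx, near its share of all promoters. The GC box GGGCGG was present in 8 of the 10 windows, among them the 3 windows of Mxi1, and in 32.7% of all promoters. The median GC content was 61.8% over the member windows and 52.4% over all promoters. It was 78.4%, 73.2% and 58.0% for Mxd1, Mxd3 and Mxd4.

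The median log2 fold change of the cofactor lists lay between 0.02 and 0.14, and that of all genes was 0.01. Past the threshold 8.0% of all genes tested were higher and 6.84% lower. Of 14 genes for coactivators that MYC recruits, 1 was higher, Brd8 of the TIP60 complex at 0.36 (edgeR exact test adjusted p of 0.00889), and 0 were lower, also at an unadjusted p under 0.05 and in the quasi-likelihood test and DESeq2. The count of genes higher was 0 when control 1 or 3 or Rnmt cKO 1 or 2 was left out and moved in 8 of 18 alternatives. A list of 17 genes was set for the SIN3-HDAC corepressor, through which MXD proteins and MNT repress. Of these genes 0 were called in the exact test, the quasi-likelihood test or DESeq2 and 0 at an unadjusted p under 0.05. Their log2 fold changes lay between -0.06 and 0.22. The most abundant genes of this list were Ncor1 at 645.4 ± 40.1 and 620.9 ± 25.3 CPM and Arid4a at 208.2 ± 12.9 and 233.4 ± 23.5 CPM (SD, n = 3 in each group). Of 9 genes of the polycomb complex of MGA, Ring1, a ubiquitin ligase subunit, was lower at -0.41 with an adjusted p of 0.0347 in the exact test, while the quasi-likelihood test and DESeq2 called 0. In the other direction edgeR had 0 genes higher, even with p unadjusted and under 0.05. The count of genes lower was 0 when control 1 or 2 or Rnmt cKO 1 or 2 was left out, and moved in 12 of 18 alternatives. Of 9 genes that act on MYC protein, Usp28, a deubiquitinase that stabilises MYC, and Gsk3a, a kinase that marks it for degradation, were higher, at 0.33 and 0.32 (adjusted p in the exact test of 0.00643 and 0.0180). This count was 0 or 1 without any 1 library and moved in 13 of 18 alternatives.

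The targets of MYC were described next. Of 41 genes that MYC is known to activate, with ribosomal protein genes left out, 3 were lower and 0 were higher in the edgeR exact test, and 4 and 2 at an unadjusted p under 0.05, while the quasi-likelihood test and DESeq2 each called 2 lower and 0 higher. Of all genes 6.84% were lower. The count of MYC-activated genes lower was 1 when control 1 or 3 or Rnmt cKO 1 or 2 was left out and 5 without Rnmt cKO 3, and it moved in 10 of 18 alternatives. The median log2 fold change was 0.03. The genes that fell were Impdh2, an enzyme of guanine nucleotide synthesis, at -1.12, Hspe1, a mitochondrial chaperone, at -0.46 and Cad, which starts pyrimidine synthesis, at -0.29 (exact test, adjusted p of 4.68e-16, 0.0207 and 0.0278). Impdh2 was at 92.4 ± 7.54 and 42.6 ± 6.99 CPM (SD, n = 3 in each group), while the groups overlapped for Hspe1. Of all genes tested 8.0% were higher. Of 6 genes that MYC is known to repress, 3 were tested, too few to set against that share. Ndrg1, a differentiation gene, and Gadd45a, a growth arrest gene, were higher at 0.84 and 0.75 (exact test, adjusted p of 5.14e-06 and 0.0215). The quasi-likelihood test and DESeq2 called 1 of them each, as did the exact test when control 1 or 3 or Rnmt cKO 1 or 2 was left out, and the count moved in 9 of 18 alternatives. Txnip and Arrdc4, the arrestin genes that MondoA and MLX activate, were at 0.22 and -0.16 with adjusted p-values of 0.171 and 0.914 in the exact test, where 1 had an unadjusted p under 0.05 and the other tools called 0. With library size alone, the counts lower and higher were 0 and 3 for coactivators, 0 and 2 for SIN3-HDAC genes, 0 and 3 for the MGA complex, 1 and 3 for MYC-activated genes and 0 and 3 for MYC-repressed genes.

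Of 10 genes that the T cell receptor induces, as it does Myc, 7 were higher and 2 were lower, with a median log2 fold change of 0.59. The shares over all genes tested were 8.0% higher and 6.84% lower. The quasi-likelihood test and DESeq2 each called 6 higher and 2 lower. The genes lower were Cd44 and Il2ra, the latter at -0.56 with an adjusted p of 0.00314 in the exact test. Egr1, Egr2 and Nr4a1, immediate early transcription factors, were higher at 1.05, 0.96 and 0.91, and Cd44, which the sort selected against, was lower at -1.05, with exact test adjusted p-values between 4.6e-14 and 1.32e-08. Over the 6 libraries the protein-coding genes whose centred log2 CPM lay nearest to that of Myc were Ube2l3, Fkbp5 and Mtmr1. Their root mean square differences were 0.0157, 0.0176 and 0.0202, where the median over 8054 genes was 0.162. As these genes were picked for the smallest differences, their place under the median was fixed by the choice and says nothing of shared regulation.

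**Figure D5:**
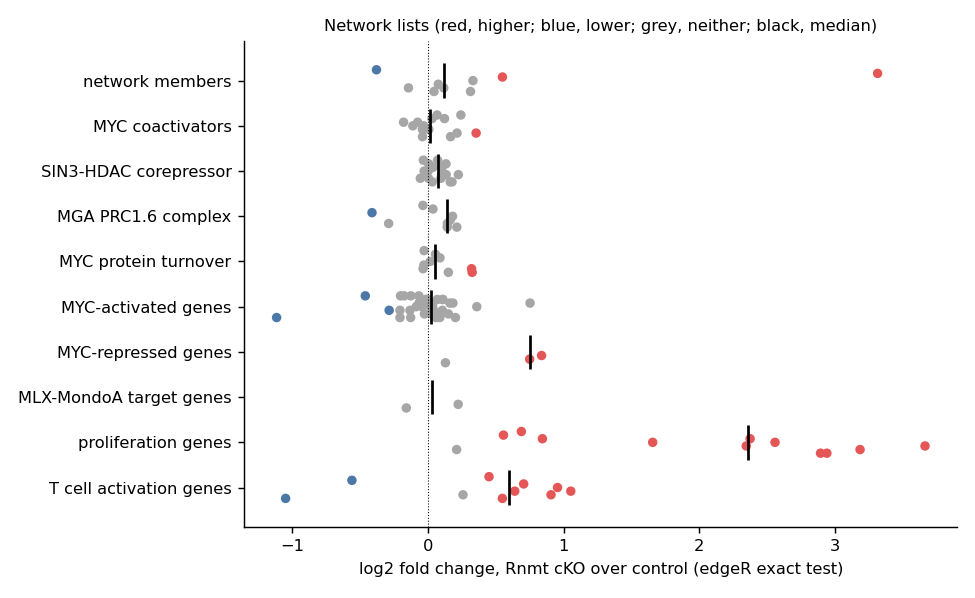
Log2 fold change of Rnmt cKO over control (x axis) for each tested gene of 10 lists (y axis). Points are genes, in red where higher and in blue where lower past the threshold, and black lines are medians. Cofactors and MYC-activated genes gather near 0, with medians from 0.02 to 0.14, and the proliferation genes have a median of 2.36. That median takes in Cdk1, Birc5 and Aurkb, which passed the filter on low counts only through the Rnmt cKO libraries.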

How the data were processed

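The authors aligned the reads with STAR 2.5.2b to mm10, using the basic GENCODE vM12 annotation, and deposited raw counts per gene for each library, with no normalization. A further deposited table holds their edgeR comparison, and its signal columns (reads scaled by library) were used only to check the counts: the sense counts gave them at 1 constant ratio per library for 100% of genes within a tolerance of 0.001. Its symbols were used, its fold changes and p-values were not. Unassigned reads (31.8% to 47.9% in no gene) stayed out of library sizes. Depth was 8873413 to 11277764 sense counts.

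Genes above 1 CPM in at least 3 samples (12336) were compared with the edgeR 4.0.16 exact test (R 4.3.3) on TMM-scaled counts, with Benjamini-Hochberg adjustment over all of them and a threshold of 0.05. Standard errors and 95% intervals (limma 3.58.1) come from log2 CPM with a prior count of 2. Lengths and coordinates are from GENCODE vM21 on the same build. The alternatives were the quasi-likelihood test, DESeq2 1.42.0, other scalings and filters, either-strand counts, a replicate block, the share of reads in no gene as a covariate, and leaving out each library. Members and lists were chosen with earlier results of these data known. From each list the called genes are named (at most 4, by adjusted p) or, with none called, the 2 most abundant. Il2ra is named beyond this limit, as the other gene induced by the T cell receptor that was lower. All of the 4 other network genes are named, and for Myc the 3 nearest protein-coding genes with a mean of at least 10 CPM. No pair of replicates agreed within counting noise (lowest chi-square per degree of freedom 3.64). As the labels do not say that replicates came from separate mice, p-values measure the spread between these samples. Of the marker lists, 2 genes are not reported here and were left out of the counts and sums. The code was tested on simulated data.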

Additional observations from a re-analysis of the deposited data

How the results depend on the processing

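Over all genes the exact test called 844 lower and 987 higher, against 535 and 1938 with library size alone and 1466 and 1696 with the share of reads in no gene as a covariate. Leaving out 1 library gave 547 to 1285 lower and 643 to 1221 higher, lowest without Rnmt cKO 2 and highest without Rnmt cKO 3. With the filter at 2 samples, chosen after seeing the data, those leave-outs gave 560 and 1326 lower. The cause was not tested. Same-numbered libraries did not deviate together (correlations of -0.21, -0.02 and -0.35), so the replicate numbers were not taken as pairs; a fit with the replicate block called 276 lower and 431 higher genes, and of the members 0 lower, with Mxd4 at an adjusted p of 0.0914 (edgeR quasi-likelihood test).

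Of the 8 members other than Mxd3, Mxd4 was lower and Mxd1 higher in the exact test. The shares over all genes tested were 6.84% lower and 8.0% higher. Mxd3, kept by the main filter only through the Rnmt cKO libraries, was called higher in each setting that tested it. Of the 9 members, with Mxd3 counted in the rest of this paragraph, 1 was lower and 2 were higher. Library size alone gave 0 and 4, the covariate 2 and 4 (Mga and Mxd4 lower), and a filter over all 6 samples left 1 higher, since Mxd3 was then not tested. Leaving out 1 library gave 0 to 1 lower and 1 to 2 higher; 0 were lower without control 3 and without Rnmt cKO 1, the latter also with the filter at 2 samples. Mxd3 had no value under the filter over all 6 samples or in the planned leave-outs of an Rnmt cKO library. Max ranged from -0.015 to 0.098 and Mlx from -0.058 to 0.173 on the log2 scale when 1 library was left out, both lowest without Rnmt cKO 3 (-0.020 and -0.063 with the filter at 2 samples), and Mlxip was at 0.054 with library size alone. Mxd1 passed in 18 of 18 alternatives, Mxd4 in 13 of 18 and Myc in 0 of 18, with adjusted p for Myc from 0.0973 to 0.988. Mxd3 passed in the 14 alternatives that tested it, and the filter on low counts removed it from the others. Some of the 14 used the filter at 2 samples, chosen after seeing the data. As the main filter kept Mxd3 only through the Rnmt cKO libraries, where it is high, these passes do not measure how robust its call is. With either-strand counts the control mean of Myc over the summed repressors was 0.712 and that of Max over its partners 0.422. For the lists, B cell markers had 3 genes higher in the exact test, 2 in the quasi-likelihood test and 2 in DESeq2, and CD8 markers 2, 1 and 1 lower. Depth limits Mxd3, at 3 counts or fewer in each control.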
